A study of Homo sapiens with 8 samples.

Results

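Celastrol was added to skin fibroblasts that were also given transforming growth factor beta 1 (TGFB1), and RNA from those cultures was compared with RNA from fibroblasts given TGFB1 without celastrol. The comparison uses 4 of the 8 libraries of the series, chosen by their labels: 2 with TGFB1 and celastrol at 500 nM, and 2 with TGFB1 and DMSO, the solvent of celastrol. The 4 other libraries hold cells with vehicle only (BSA, citric acid and DMSO) and cells with BSA, citric acid and celastrol at 500 nM. All cells were CCD-1077Sk, an established line of fibroblasts from normal human skin, grown past passage 8 in high glucose DMEM with 10% fetal bovine serum and collected after 6 h of treatment. The design asks how celastrol alters the gene expression that TGFB1 brings about. A single line, celastrol dose and time were used, and no TGFB1 dose appears in the labels. Nothing states that both libraries of a group were cultured separately, so p-values reflect only how far these libraries differ, and that spread may be technical. Of 22866 genes tested, 13343 had a mean of at least 50 normalized reads in both compared groups, and the results below are for those genes unless said otherwise.

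TGFB1 signals through paired receptor serine kinases that phosphorylate SMAD2 and SMAD3, which enter the nucleus with SMAD4 and raise genes of the extracellular matrix, the contractile cytoskeleton and their own feedback inhibitors. In skin fibroblasts this program is known for wound closure and, when it persists, for scarring and fibrosis. Celastrol is a quinone methide triterpenoid from the thunder god vine, and it is known as an activator of heat shock factor 1, the transcription factor that raises the cytosolic chaperones when proteins misfold. Cells under such stress are also known to raise oxidative stress genes, genes of the integrated stress response, in which translation is slowed and ATF4 is made, and immediate early genes.

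The unit is a normalized read, an estimated read count divided by the size factor of its library, and it is scaled neither by gene length nor to a common total, so levels of different genes are not set against each other. The 2 TGFB1 libraries held 21161842 and 24602620 estimated reads and the 2 with celastrol 38582957 and 24406763. A total of 3 reads, an approximate upper limit for the expected count where 0 was seen, are worth 1.80 to 4.24 normalized reads in the 8 libraries, counting error only. Genes at 0 numbered 2693 and 2682 of 24598 in the TGFB1 libraries and 59 and 115 in the celastrol ones, and the part of this gap in the results was not tested. All 10 fibroblast markers were in the table, and their summed level was 554797 and 674411 normalized reads with TGFB1 and 381771 and 444429 with celastrol, with COL1A1 among them. Of 6 keratinocyte markers 3 were in the table, without KRT5, KRT14 and KRT1, at a summed 939 to 1059 normalized reads in the 4 libraries. Of 5 endothelial markers 3 were present, without CDH5 and CLDN5, at 90.4 and 51.5 with TGFB1 and 456 and 345 with celastrol. Of 5 melanocyte markers 2 were present, without TYR, DCT and SOX10, at 14.1 and 11.1 against 122 and 95.7. Immune markers (4 of 5, without CD3E) summed to 311 to 525 and the 4 smooth muscle or pericyte markers to 1593 to 2425 in the 4 libraries. In RNA from whole cultures, fewer cells of a type and less RNA per cell cannot be told apart.

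Celastrol moved most of the measured transcripts of TGFB1-treated fibroblasts. Of the 13343 genes, 8080 (60.6%) were called at an adjusted p under 0.05 (limma with Benjamini-Hochberg adjustment, the test behind every adjusted p for a gene below): 3003 were higher (22.5%) and 5077 lower (38.0%) with celastrol. Over all 22866 genes 63.4% were called, 37.5% higher and 25.9% lower. Changes are log2 fold changes on the log2(normalized reads + 1) scale, positive where celastrol was higher. The rises were fewer and larger. Among called genes, 1001 rose and 690 fell at least 2-fold, 242 rose and 86 fell at least 4-fold, and 53 rose and 15 fell at least 8-fold. The median change was 0.71 over the genes called higher, -0.52 over those called lower and -0.13 over all 13343. Both celastrol libraries lay above both TGFB1 libraries for 4001 genes (30.0%) and below both for 6517 (48.8%).

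The balance of small changes depended on how the libraries were scaled. With each library scaled to a common total, the median of all genes moved to 0.03, and 4007 genes were higher and 3468 lower, so that 53.6% of calls were rises against 37.2% as deposited. With each library centred on its median over all 22866 genes tested, low ones included, the median of the 13343 genes was -0.42. Of the 13343, 1799 were higher and 7956 lower, and 18.4% of calls were rises. That centring therefore does not bring the 13343 genes to a median of 0. Larger changes moved as well: genes changed at least 2-fold were 1252 higher and 474 lower with a common total, and 651 and 1504 with median centring. Gene lists whose median changed sign between scalings are therefore given with their counts under all 3, as higher and lower. Counts of every list are to be read beside the shares over all 13343 genes, 22.5% higher and 38.0% lower.

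**Figure D1:**
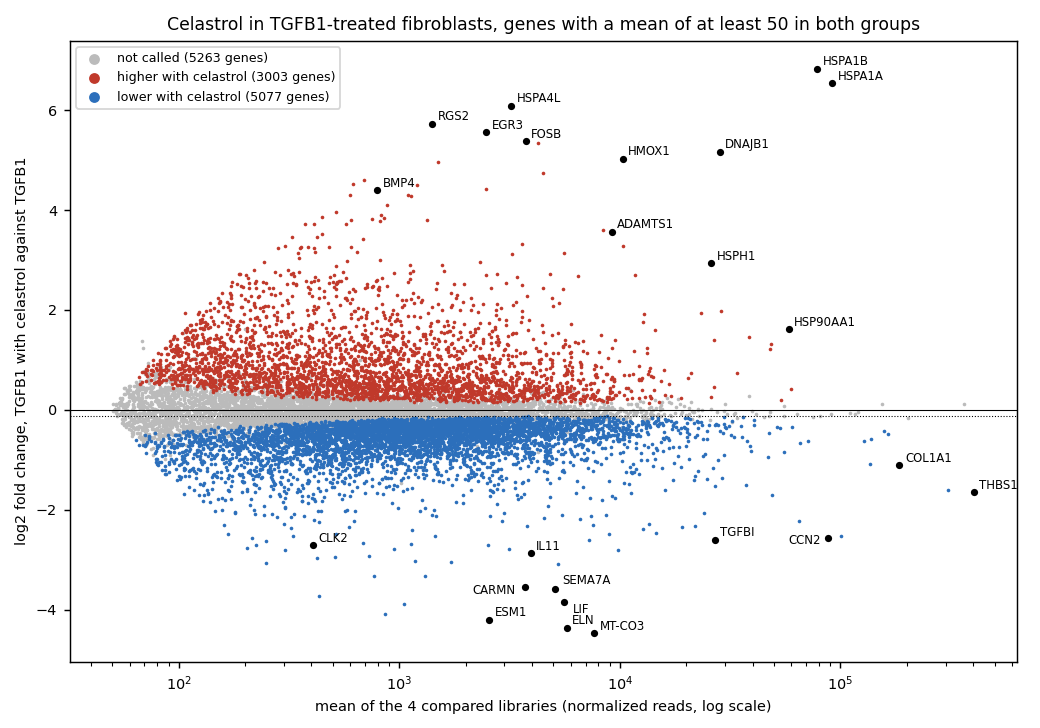
Change with celastrol against level for the 13343 genes: the x axis is the mean of the 4 compared libraries in normalized reads (log scale), the y axis the log2 fold change, and each point 1 gene, with 3003 called higher in red, 5077 called lower in blue and 5263 not called in grey. The dotted line is the median of all genes, -0.13, and HSPA1B, HSPA1A and HSPA4L stand at the top while MT-CO3, ELN and ESM1 stand at the bottom.

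Falls were more often called among genes of high level. Of the 3336 genes of lowest level, 23.6% were called higher and 19.2% lower, and of the 3336 of highest level 21.3% were higher and 51.3% lower. Long non-coding RNA genes had the reverse balance to protein coding ones: 34.2% of 705 long non-coding genes rose and 26.2% fell, against 22.6% and 40.3% of 11573 protein coding genes. Rises were also more frequent in long genes, at 30.8% of the 3336 with the longest genomic span against 17.0% of the 3336 with the shortest. Chromosome 19 had 12.8% of its 880 genes higher and 42.7% lower, and chromosome 18 had 34.4% of its 195 genes in each direction. These shares are under the deposited scaling, and no test was made of them.

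The chaperone genes carried the largest rises, and their promoter windows were searched for a known element, as a description. Heat shock factor 1 binds inverted repeats of a short element, written here as GAANNTTC for a pair of units, which reads the same on both strands. Promoter windows of RefSeq (build GRCh38.p14, from 250 bases before to 50 after a transcript start) were searched for it, a motif chosen after earlier results were known. Of 33 genes in the 4 chaperone lists that were called higher, 31 had a window and 16 of these (51.6%) held the pair. Of 39 chaperone genes called lower or not called, 34 had a window and 1 (2.94%), HSPB6, held it. The windows of the 31 and 34 genes numbered 47 and 40, and 36.2 and 2.5% of them held it. The lists, like the motif, were chosen with earlier results known, and the cause of the rises was not tested. Among measured genes, 636 of 9678 with a window (6.57%) held the pair, and of all 35116 windows in the RefSeq set, 6.77% did. Of genes with a window, 8.78% of the 2210 called higher and 5.36% of the 3917 called lower held the pair. A longer form of 3 units was also searched. It was in 7 of the 31 chaperone genes called higher (22.6%), 0 of the 34 others and 0.486% of measured genes. CHORDC1 held the 3 units, while HSPA1A, HSPA1B, DNAJB1 and DNAJA4 held only the pair. The 250 bases before the start are printed for 4 risers, 5′ to 3′ on the strand of the gene, with each GAANNTTC match in capitals. They are HSPA1A (chr6:31815293-31815542, plus strand), DNAJB1 (chr19:14518398-14518647, minus strand), DNAJA4 (chr15:78264312-78264561, plus strand) and CHORDC1 (chr11:90223050-90223299, minus strand).
HSPA1A: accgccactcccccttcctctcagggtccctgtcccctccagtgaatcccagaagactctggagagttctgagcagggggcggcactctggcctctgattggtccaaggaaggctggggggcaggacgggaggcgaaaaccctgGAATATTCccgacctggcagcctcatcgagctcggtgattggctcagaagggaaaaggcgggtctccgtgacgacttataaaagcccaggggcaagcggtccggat
DNAJB1: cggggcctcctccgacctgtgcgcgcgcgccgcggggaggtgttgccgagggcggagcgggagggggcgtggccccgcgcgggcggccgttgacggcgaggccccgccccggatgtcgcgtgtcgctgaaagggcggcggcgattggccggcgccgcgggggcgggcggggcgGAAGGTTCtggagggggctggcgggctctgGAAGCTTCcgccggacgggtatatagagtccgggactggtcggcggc
DNAJA4: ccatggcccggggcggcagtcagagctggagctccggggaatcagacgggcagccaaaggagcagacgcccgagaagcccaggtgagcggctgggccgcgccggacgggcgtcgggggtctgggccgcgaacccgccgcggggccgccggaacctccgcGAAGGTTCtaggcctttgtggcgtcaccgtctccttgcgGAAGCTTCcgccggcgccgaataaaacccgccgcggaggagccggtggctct
CHORDC1: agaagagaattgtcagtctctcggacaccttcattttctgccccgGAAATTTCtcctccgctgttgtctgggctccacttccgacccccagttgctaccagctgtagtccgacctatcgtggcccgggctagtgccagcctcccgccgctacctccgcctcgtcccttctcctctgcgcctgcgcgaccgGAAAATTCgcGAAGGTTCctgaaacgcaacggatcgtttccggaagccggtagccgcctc
HSPA1A held 1 match, which begins 106 bases before the start. DNAJB1 and DNAJA4 held 2 each, and CHORDC1 held 3, of which the last 2 lie close together. A match describes letters and is not a binding site, and HSPA4L, HSPH1 and BAG3, which rose, held no pair in their windows.

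**Figure D2:**
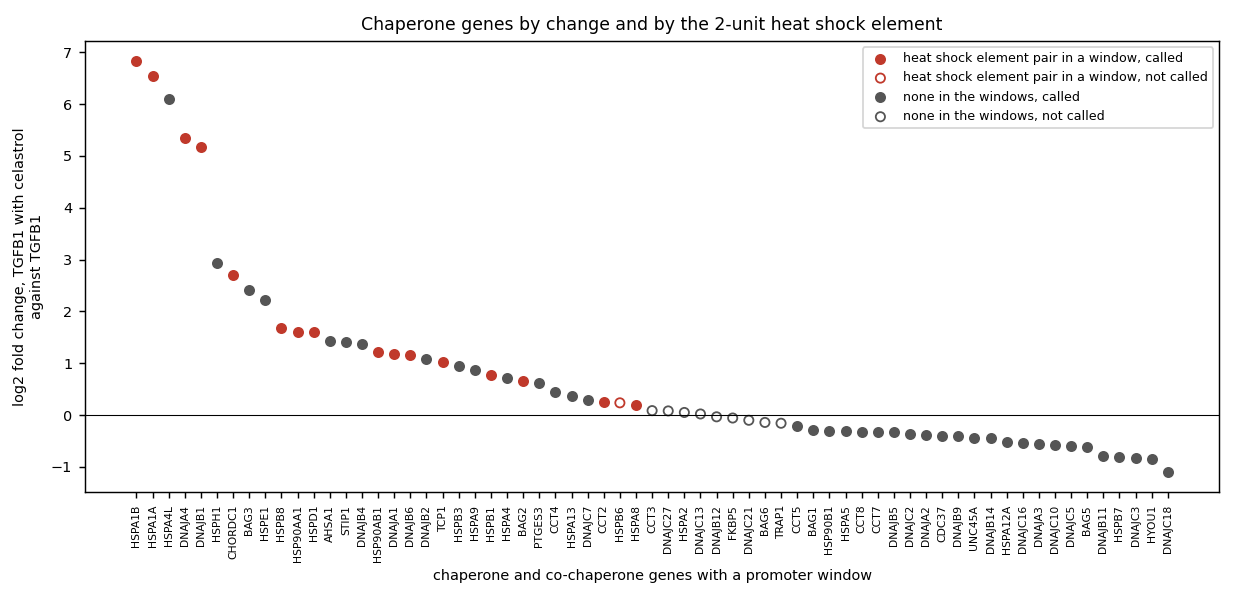
The 65 chaperone and co-chaperone genes with a promoter window, ordered by the log2 fold change with celastrol (y axis), red where a window holds GAANNTTC and grey where none does, filled where the change was called. Of the red points, 16 are called higher and 1, HSPB6, is not called.

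Among the HSP70 and HSP110 chaperones, which bind unfolded proteins and release them on ATP exchange, the inducible HSPA1A and HSPA1B had the largest rises by the naming rule. HSPA1L and HSPA6 were tested but lay below the level rule. HSPA1A went from 1823 and 2086 to 182186 and 180841 normalized reads, and HSPA1B from 1276 and 1483 to 155983 and 156145. The libraries of each group lay close together and the groups were far apart, at 92.9-fold for HSPA1A. The changes were 6.54 (SE 0.11, adjusted p = 1.64e-08) and 6.82 (SE 0.12, adjusted p = 1.64e-08). The pair are near-identical copies, so reads could have been exchanged, and HSPA1B overlaps an exon of a gene with a clone name. Together they took 0.0104 and 0.0118% of all normalized reads with TGFB1 and 1.25 and 1.25% with celastrol.

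HSPA4L, a member of the HSP110 family that acts as an exchange factor for HSP70, was low with TGFB1, at 129.9 and 63.9 normalized reads, and reached 7127 and 5541 with celastrol. That is a change of 6.09 (SE 0.30, adjusted p = 1.18e-06), and its 2 TGFB1 libraries lay further apart than those of HSPA1A. Its family member HSPH1 went from 6099 and 5907 to 48979 and 42830.4 (2.93, SE 0.07, adjusted p = 8.21e-08). The mitochondrial HSPA9 rose by 0.87 and the exchange factor HSPA4 by 0.71. The constitutive HSPA8, already at 48492 and 52417, reached only 58452 and 56616 (0.19, adjusted p = 0.035), a call that ended under median centring, where its change was -0.10 (adjusted p = 0.236). Of the 13 list members at or above the level rule, 8 rose and 3 fell, with a median of 0.37 against -0.13 over all genes. HSPA5 and HYOU1 of the endoplasmic reticulum and HSPA12A were the 3 that fell.

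J-domain proteins hand clients to HSP70. DNAJB1 went from 1490.1 and 1595 to 56382 and 54293 normalized reads (5.16, SE 0.09, adjusted p = 1.64e-08), and DNAJA4 from 222 and 184 to 9428 and 7139 (5.34, SE 0.13, adjusted p = 8.21e-08). Neither gene's groups came near each other. DNAJB4, DNAJA1 and DNAJB6 rose by 1.38, 1.17 and 1.15. Of 24 J-domain genes 7 rose (29.2%) and 12 fell (50%), against 22.5 and 38.0% over all genes. The median was -0.27, and the counts were 8 and 10 with a common total. Among those that fell, DNAJC3 (-0.83) and DNAJB11 (-0.80) serve HSPA5 in the endoplasmic reticulum.

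HSP90 and its partners stabilise kinases and receptors, and the chaperonins fold proteins inside a closed ring. The cytosolic HSP90AA1 went from 29452 and 28269.6 to 91199 and 84769 (1.61, SE 0.07, adjusted p = 5.24e-07) and HSP90AB1 from 28149 and 29732 to 68479 and 66215 (1.22). HSP90B1, the form of the endoplasmic reticulum, went the other way, from 27373 and 24900.2 to 21022 and 21336 (-0.30, adjusted p = 0.0029), a call that ended with a common total (adjusted p = 0.0867). The co-chaperone CHORDC1 went from 3201 and 3084 to 20899.7 and 19884 (2.70, SE 0.06, adjusted p = 3.61e-08), and FKBP4, which links HSP90 to steroid receptors, rose by 2.09. The mitochondrial chaperonin HSPD1 and its lid HSPE1, whose annotated exons overlap, rose by 1.60 and 2.22. Of 23 genes of the list 12 rose and 8 fell, and its median of 0.24 became -0.04 under median centring, with 11 higher and 11 lower, and 0.40 with a common total, with 13 and 5. The small heat shock proteins and BAG proteins had 6 of 12 higher and 3 lower (median 0.45). BAG3, which couples HSP70 to small heat shock proteins and autophagy, went from 1667 and 1834 to 9706 and 8895 (2.41, SE 0.09, adjusted p = 3.9e-07), and CRYAB, alpha B crystallin, from 332 and 419 to 1455 and 1545 (2.00, SE 0.18, adjusted p = 2.33e-05). HSPB8 and HSPB1 rose by 1.68 and 0.76.

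Endoplasmic reticulum chaperones and export genes were mostly lower. Of 30 genes 27 fell and 1 rose, with a median of -0.38. The count lower was 16 with a common total and 29 with median centring. SYVN1, the ubiquitin ligase that clears misfolded proteins from this compartment, went from 1216 and 1380.2 to 559 and 583 (-1.18, SE 0.10, adjusted p = 1.39e-05). CREB3L2, a membrane-bound transcription factor of secretory genes, went from 18308 and 20445 to 8841 and 8998 (-1.12, SE 0.06, adjusted p = 2.56e-06). The chaperone partners SDF2L1 and MANF fell by 1.10 and 0.88, and HSPA5, the central chaperone of the compartment, went from 27131 and 29015 to 22202 and 23242 (-0.30, adjusted p = 0.0029, 0.0638 with a common total). The gene that rose was ERO1B, a disulfide oxidase (1.05, adjusted p = 0.000104).

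Ubiquitin and the proteasome parted as well. Of 35 genes of the list 21 were lower, all of them proteasome subunits, and 3 were higher. UBB, a ubiquitin gene, was among the latter, from 9615 and 9908 to 15217 and 14174 (0.59, SE 0.07, adjusted p = 8.78e-05). The proteasome falls were small and reached -0.64 in PSMA2. With a common total 8 list members were lower in place of 21, with median centring 32, and without the first library with celastrol 12. SQSTM1, the autophagy receptor p62, was at 7364 and 8736 and 9409.9 and 9615 (0.25, adjusted p = 0.0252), and under median centring its change was -0.042.

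NRF2 is the transcription factor of the response to oxidants and electrophiles. HMOX1, heme oxygenase 1, went from 523 and 717 to 20709.8 and 19305 normalized reads (5.03, SE 0.13, adjusted p = 9.4e-08), with every celastrol library far above every TGFB1 library. NQO1, a quinone reductase used widely to read NRF2 activity, was 13193 and 17829 with TGFB1 and 13102 and 18103 with celastrol, so that the groups overlapped (0.01, adjusted p = 0.984). GCLM, of glutathione synthesis, rose by 0.35, a call lost with median centring (adjusted p = 0.529). The stress sestrin SESN2 rose by 1.44. Of 25 NRF2 targets 9 rose and 3 fell, and the median of 0.11 became -0.18 under median centring, with 8 higher and 8 lower, and 0.26 with a common total, with 11 and 0.

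The integrated stress response was among the lists with most members higher: 25 of 34 rose and 1, the arginine transporter SLC7A1, fell, with a median of 0.72 and counts of 30 and 19 higher under a common total and median centring. ATF3, a stress-induced transcription factor, went from 93.2 and 129 to 2086 and 2199 (4.27, SE 0.14, adjusted p = 1.93e-07). PPP1R15A, the phosphatase subunit that ends the response, went from 1905 and 1953 to 18293 and 19003 (3.27, SE 0.06, adjusted p = 1.9e-08). CTH, which makes cysteine from cystathionine, went from 48 and 60.2 to 609 and 592 (3.46, SE 0.18, adjusted p = 1.57e-06). TRIB3, STC2 and DDIT4 rose by 2.29, 2.24 and 2.06. The transcript of ATF4 itself, whose protein is set mainly by translation, went from 5655 and 6467 to 9210.5 and 9735 (0.65, adjusted p = 0.000327).

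Immediate early genes, which are transcribed within minutes of a signal and decay fast, stood high at 6 h. EGR3, a zinc finger factor, went from 109 and 95.9 to 4704 and 4999.6 (5.56, SE 0.15, adjusted p = 9.56e-08), and NR4A1, an orphan nuclear receptor, from 299 and 349 to 8922 and 8373 (4.74, SE 0.09, adjusted p = 1.64e-08). The groups were well separated in both. KLF4, a reprogramming factor known for its part in epithelial barrier and smooth muscle genes, went from 87.6 and 114 to 2098 and 2522 (4.51, SE 0.21, adjusted p = 1.04e-06), and EGR1 from 1709 and 1785 to 10287 and 12166 (2.68, SE 0.11, adjusted p = 5.72e-07). Of 24 genes 17 rose and 4 fell, with a median of 1.16. The 4 that fell were SRF, RHOB, IER5L and PLK3.

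AP-1 factors had 8 of 11 higher and 1 lower, MAFK, with a median of 0.44. FOSB went from 181 and 168 to 6838 and 7776 (5.38, SE 0.10, adjusted p = 1.64e-08). FOS was below the level rule, at 39.5 and 36.9 with TGFB1 and 3432 and 4509 with celastrol (6.65, SE 0.21, adjusted p = 1.74e-07). JUN, the usual partner of both, was 2192 and 2274 and 1833 and 2274, with groups that met at their edges (-0.13, adjusted p = 0.253). MAP kinase phosphatases and Sprouty proteins shut off growth factor signalling, and 11 of 15 rose, with a median of 0.68, while DUSP7 fell by 1.22. DUSP1 went from 1990.0 and 1969 to 8713 and 8638 (2.13, SE 0.10, adjusted p = 8.45e-07), DUSP10 rose by 2.25 and SPRY2 by 1.73. RGS2, which shortens signalling from Gq-coupled receptors, went from 57.9 and 45.5 to 2788 and 2741 (5.72, SE 0.17, adjusted p = 1.42e-07), the fourth largest rise by the naming rule.

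**Figure D3:**
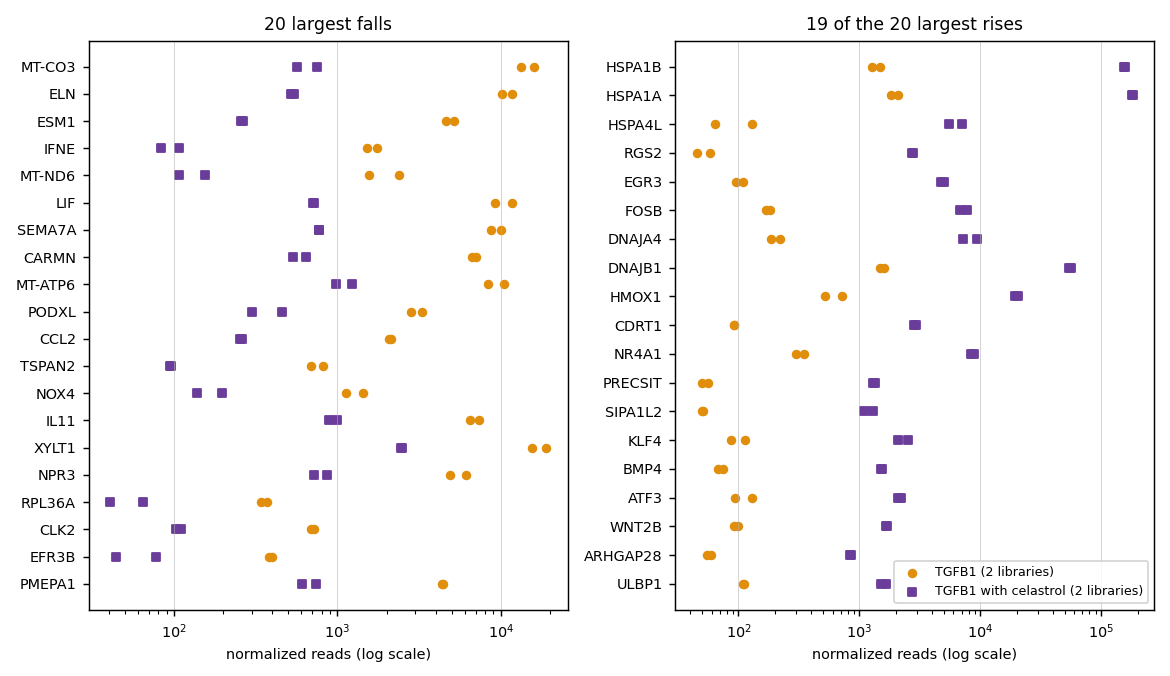
Normalized reads (x axes, log scale) in each of the 2 TGFB1 libraries (orange circles) and the 2 libraries with celastrol (purple squares) for the 20 largest falls, left, and 19 of the 20 largest rises, right, by the naming rule. The falls run from MT-CO3 (-4.48) to PMEPA1 (-2.70) and the rises from HSPA1B (6.82) to ULBP1 (3.84), and in no gene shown do the groups overlap.

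Other large rises were in genes of no list above. They include CDRT1, an F-box protein gene (4.96), the long non-coding RNA PRECSIT (4.61) and SIPA1L2, a GTPase-activating protein for Rap (4.52). WNT2B, a Wnt ligand (4.11), and ULBP1, a stress ligand of the natural killer receptor NKG2D (3.84), are also among them. ULBP1 went from 112 and 108 to 1511 and 1670.0 (SE 0.10, adjusted p = 9.4e-08). CDRT1 overlaps exons of genes with clone names and WNT2B those of ST7L.

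In the TGFB pathway itself, TGFB1, LTBP2, LRRC32 and FSTL3 fell, while BMP4, FST, TGFBR3 and ITGB8 rose. TGFB1 transcript went from 3669 and 4300.4 to 1167 and 1236 (-1.72, SE 0.11, adjusted p = 3.29e-06), although its exons overlap those of HNRNPUL1. TGFB2 was 1426 and 1168 and 1314 and 1372 and did not pass (0.06, adjusted p = 0.642). LTBP2, a matrix protein of the latent TGFB binding family, went from 21812 and 27532 to 4375 and 4460.4 (-2.47, SE 0.11, adjusted p = 8.13e-07), and LRRC32, which holds latent TGFB at the cell surface, from 487 and 441 to 167 and 127 (-1.67, SE 0.19, adjusted p = 7.89e-05). FSTL3, an activin antagonist, fell by 1.89, while the related activin antagonist FST went from 1056 and 1029.9 to 4412 and 4595 (2.11, SE 0.05, adjusted p = 9.56e-08). BMP4 went from 67.8 and 75 to 1534 and 1506 (4.39, SE 0.09, adjusted p = 2.94e-08), 21.3-fold higher.

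The signalling receptors moved less. TGFBR1 was 7766 and 5948 with TGFB1 and 4573 and 3986 with celastrol (-0.67, adjusted p = 0.00524, 0.0596 without the second library with celastrol), and TGFBR2 was 3888 and 3932 and 3349.7 and 3578 (-0.18, adjusted p = 0.021, 0.799 with a common total). The BMP receptor BMPR2 fell by 1.14. The co-receptor TGFBR3, betaglycan, rose from 294 and 291 to 1884 and 2019 (2.73, SE 0.09, adjusted p = 1.91e-07), and ITGB8, an integrin chain that activates latent TGFB, from 89 and 128 to 613 and 681 (2.59, SE 0.17, adjusted p = 5.32e-06). Of 26 ligands, latency proteins and receptors, 5 rose (19.2%) and 14 fell (53.8%), with a median of -0.27. Over all genes 22.5% were higher and 38.0% lower.

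Of 24 SMADs and feedback regulators 12 rose and 10 fell, with a median of 0.30, and the counts were 14 and 7 with a common total and 9 and 11 with median centring. The inhibitory SMAD6 went from 181 and 168 to 782 and 770.4 (2.15, SE 0.09, adjusted p = 5.13e-07), and SMAD7 from 3439 and 3257 to 6031 and 5699.6 (0.81, SE 0.14, adjusted p = 0.00121). SMAD3, the signal carrier, rose by 0.61 and ID2, a target of the BMP branch, by 2.24. PMEPA1, which keeps SMAD2 and SMAD3 from the receptor, fell from 4397 and 4364 to 744 and 607 (-2.70, SE 0.10, adjusted p = 3.53e-07) and overlaps an exon of NKILA. SMURF2, a ubiquitin ligase of SMADs and receptors, fell by 1.24.

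Matricellular and secreted targets of TGFB1 held a large share of the RNA and lost most of it. The list together took 5.35 and 5.67% of all normalized reads with TGFB1 and 2.06 and 2.00% with celastrol. Of the 22, 14 fell and 2 rose (SPP1 and CCN3), with a median of -0.77. CCN2, connective tissue growth factor, went from 143117 and 157853 to 24485 and 26064 (-2.57, SE 0.10, adjusted p = 3.96e-07). It was 5.95-fold lower with celastrol, with no overlap. THBS1, thrombospondin, went from 620384 and 601653 to 216913 and 173236 (-1.66, SE 0.17, adjusted p = 4.7e-05), TGFBI, a collagen-binding adhesion protein, fell by 2.60, and ESM1, endocan, went from 4586 and 5128 to 266 and 258 (-4.21, SE 0.13, adjusted p = 1.6e-07). ESM1 overlaps an exon of a gene with a clone name.

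The bases before the start of CCN2 (chr6:131951373-131951622, minus strand, GRCh38.p14) are printed because CCN2 is a known target of TEAD factors as well as of SMADs, with each GGAATG, a core of TEAD sites searched on both strands, in capitals; this motif too was chosen after earlier results were known.
CCN2: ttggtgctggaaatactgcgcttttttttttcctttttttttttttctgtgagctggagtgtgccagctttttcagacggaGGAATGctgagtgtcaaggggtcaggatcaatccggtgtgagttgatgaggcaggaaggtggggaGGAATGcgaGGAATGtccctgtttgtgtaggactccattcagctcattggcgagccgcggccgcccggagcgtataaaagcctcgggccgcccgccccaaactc
The window held 3 matches. GGAATG was in 11.4% of the 14212 windows of the genes measured and in 8.96% of the 67 windows of genes that fell at least 4-fold. The palindromic SMAD element GTCTAGAC was in 0.134% of the 14212 windows, and the AP-1 element TGANTCA in 5.09% of them, 7.71% of all 35116 windows of the set, 7.72% of the 337 windows of genes that rose at least 4-fold and 4.65% of the 5549 of genes called lower. The antioxidant element TGACNNNGC was in 14.4% of all, the amino acid element TGATGNAA in 1.87% and the cAMP element TGACGTCA in 2.88%, against 14.8, 2.37 and 2.37% where genes rose at least 4-fold and 13.3, 3.62 and 1.85% of all 35116 windows.

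Collagen chains fell in 18 of 25 cases and rose in 3, with a median of -0.68 and counts of 16 and 20 lower under the other scalings. COL4A1, a basement membrane chain, went from 37185 and 35949.6 to 8217 and 6438 (-2.33, SE 0.15, adjusted p = 4.42e-06), and its partner COL4A2 fell by 1.40. COL7A1, the anchoring fibril that ties epidermis to dermis, fell by 1.73 and the fibril nucleator COL5A1 fell by 1.52. COL1A1, the main fibrillar chain, went from 223348 and 284508 to 108573 and 125115 (-1.11, SE 0.15, adjusted p = 0.00026), and COL1A2 from 140763 and 170475 to 93459.6 and 107517 (-0.63, SE 0.13, adjusted p = 0.00259). The 3 that rose were COL15A1, COL4A5 and COL11A1. That count was 0 with median centring, 4 with a common total, and 1 without either library with celastrol, the second TGFB1 library or either library of celastrol alone. COL15A1 was low, from 103 and 73.7 to 159 and 149 (0.81, adjusted p = 0.0284), and its call ended under median centring and without either library with celastrol. As a share of all normalized reads the list went from 3.00 and 3.33% to 1.91 and 2.01%.

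Genes that process and cross-link collagen fell in 21 of 30 cases and rose in 2 (ADAMTS3 and COLGALT2), with a median of -0.48. TGM2, transglutaminase 2, went from 12400.1 and 12365 to 2681 and 1545 (-2.60, SE 0.26, adjusted p = 4.3e-05). ADAMTS2, which removes the amino-terminal propeptide of procollagen, fell by 1.70, and the cross-linking enzymes LOX and PLOD2 by 0.74 and 0.36. SERPINH1, the collagen chaperone HSP47 and itself a heat shock gene, was 12305 and 14701 with TGFB1 and 15329 and 15657 with celastrol (0.20, adjusted p = 0.0984), and passed upward with a common total (adjusted p = 0.00876).

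Elastic fibre genes had 9 of 16 lower and 0 higher, with a median of -0.28, and the largest falls were those of ELN and of LTBP2, given above. ELN, elastin, went from 10144 and 11754 to 519 and 538 (-4.37, SE 0.20, adjusted p = 8.13e-07), 20.7-fold lower; its exons overlap ELN-AS1. FBN1, fibrillin, fell by 0.73. Proteoglycan and hyaluronan genes had 13 of 26 lower (50%) and 3 higher (11.5%), CEMIP, CHST11 and SDC2, against 38.0 and 22.5% over all genes. XYLT1, which starts the sugar chains of proteoglycans, went from 15506 and 18871 to 2464 and 2441 (-2.80, SE 0.11, adjusted p = 3.9e-07). Hyaluronan turned both ways: the synthase HAS2 went from 3654 and 5285 to 1344 and 1556 (-1.60, SE 0.21, adjusted p = 0.000208) and CEMIP, which helps degrade hyaluronan, from 7178 and 7062 to 16424 and 15698 (1.17, SE 0.08, adjusted p = 5.85e-06).

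Contractile and cytoskeletal genes fell in 26 of 35 cases and rose in 2 (TES and LMOD1), with a median of -0.46. TPM1, tropomyosin 1, went from 73766 and 75742 to 23320.3 and 22303 (-1.71, SE 0.08, adjusted p = 8.04e-07), PDLIM5 fell by 1.26 and TAGLN by 0.89. ACTA2, the smooth muscle actin that marks myofibroblasts, was 3368 and 2198 with TGFB1 and 2259 and 1200.1 with celastrol. Its groups overlapped and it did not pass (-0.72, SE 0.40, adjusted p = 0.145), while it passed with median centring (adjusted p = 0.0444). It also passed with the replicate number as a block (adjusted p = 0.000269), a pairing that the labels do not establish. The exons of ACTA2 overlap FAS. Integrins and focal adhesion genes fell in 18 of 26 cases and rose in 1, ITGB8, with a median of -0.46. ITGA2, the alpha chain of a collagen receptor, went from 14047 and 16122 to 2577 and 2822 (-2.48, SE 0.10, adjusted p = 4.24e-07), ITGB3 fell by 1.47, and PTK2, focal adhesion kinase, by 0.78.

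Of 27 matrix proteases and inhibitors 6 rose (22.2%) and 13 fell (48.1%), against 22.5% higher and 38.0% lower over all genes, with a median of -0.05. The median was 0.11 with a common total (7 and 12) and -0.34 with median centring (5 and 16). The aggrecanases ADAMTS1 and ADAMTS5 rose, ADAMTS1 from 1398 and 1471 to 15828 and 18076 (3.56, SE 0.08, adjusted p = 3.61e-08) and ADAMTS5 by 2.71. The membrane proteases ADAM19 and ADAM12 fell, ADAM19 from 21308 and 21602 to 4426 and 3754 (-2.40, SE 0.11, adjusted p = 1.02e-06) and ADAM12 by 2.12. TIMP1, the metalloprotease inhibitor, fell by 1.47, and TIMP3 did not pass (0.02, adjusted p = 0.93). NOX4, an oxidase of the TGFB1 response that makes hydrogen peroxide, went from 1442 and 1127 to 198 and 139 (-2.94, SE 0.28, adjusted p = 3.39e-05).

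Secreted signals changed in both directions, with 9 of 30 cytokines, chemokines and growth factors higher (30%) and 15 lower (50%) (median -0.24). Over all genes the shares were 22.5% higher and 38.0% lower. LIF and IL11, which signal through the shared receptor gp130, were among the largest falls: LIF went from 9226 and 11612 to 717 and 709.8 (-3.86, SE 0.10, adjusted p = 9.56e-08) and IL11 from 6503 and 7363 to 995 and 893 (-2.88, SE 0.09, adjusted p = 1.96e-07). LIF overlaps exons of LIF-AS1. The monocyte chemoattractant CCL2 went from 2113 and 2071 to 260.1 and 252 (-3.03, SE 0.13, adjusted p = 7.26e-07), and IFNE, interferon epsilon, from 1506 and 1750.2 to 82.7 and 108 (-4.09, SE 0.17, adjusted p = 5.13e-07). The EGF receptor ligands parted: HBEGF went from 6873 and 7971 to 2006 and 2399 (-1.75, SE 0.12, adjusted p = 6.34e-06) and EREG from 145 and 171 to 987 and 1000.4 (2.65, SE 0.10, adjusted p = 4.02e-07). HGF and BDNF rose by 1.55 and 1.29. SEMA7A, a membrane-anchored semaphorin, went from 8737 and 10003 to 773 and 770.4 (-3.60, SE 0.08, adjusted p = 3.57e-08), and the clearance receptor of natriuretic peptides, NPR3, fell by 2.79. Further large falls were in PODXL, a sialomucin (-3.04), TSPAN2, a tetraspanin (-2.97), and EFR3B, which anchors a lipid kinase at the membrane (-2.71).

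NF-kB and inflammatory regulators had 10 of 25 higher and 12 lower (median -0.23). NFKBIA, the inhibitor that NF-kB induces, was 649.7 and 549 and 604 and 584 with overlapping groups (-0.01, adjusted p = 0.954), and PTGS2, cyclooxygenase 2, went from 14852 and 15761 to 6558 and 7191 (-1.16, SE 0.09, adjusted p = 1.15e-05). Of 21 genes of the interferon response, 12 were higher and 0 lower (median 0.54), with 9 and 2 under median centring and 15 and 0 under a common total. Of the 10 with a mean of at least 200 in both groups, 3 were higher. IFIT2 went from 63.6 and 46.7 to 366 and 401 (2.79, SE 0.19, adjusted p = 5.43e-06) and IFIT1 from 131 and 102 to 548 and 758 (2.47, SE 0.18, adjusted p = 7.59e-06). Without TGFB1 their changes with celastrol were 0.10 and 0.38. The list took 0.065 and 0.062% of all normalized reads with vehicle and 0.045 and 0.042% with TGFB1. With both agents it took 0.063 and 0.065%, near vehicle.

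Transcription factors of mesenchymal cells rose more often than they fell, 14 against 6 of 25, with a median of 0.49. TWIST1 went from 212 and 215 to 686 and 804 (1.79, SE 0.10, adjusted p = 1.92e-06), SNAI1 from 389.8 and 414 to 1406 and 1394 (1.80, SE 0.21, adjusted p = 9.27e-05) and RUNX2, which drives bone formation, from 446 and 413 to 1535 and 1424 (1.78, SE 0.07, adjusted p = 5.15e-07). FOXO1 rose by 1.95. GLI2, the activator of the hedgehog pathway and a known TGFB1 target, went from 2996 and 3129 to 881 and 809 (-1.86, SE 0.07, adjusted p = 3.9e-07). RUNX1 was 12238 and 11794 and 11627 and 11252 (-0.07, adjusted p = 0.341). The YAP and TAZ pathway had 11 of 29 higher and 10 lower with a median of -0.02, which was 0.14 with a common total (12 and 8) and -0.31 with median centring (8 and 17). YAP1 itself was 7820.3 and 7508 and 7447 and 7663 (-0.02, adjusted p = 0.743). CCND1, the cyclin of the G1 phase, fell from 41525 and 42268 to 17353 and 15402 (-1.36, SE 0.08, adjusted p = 2.55e-06). In the cell cycle list 7 of 31 were lower (22.6%), 1 was higher (3.23%), CCNB2, and 23 were not called. Both shares lay under those over all genes, 38.0% lower and 22.5% higher. The median of that list was 0.02, with 5 higher and 5 lower with a common total (median 0.18) and 0 and 14 with median centring (-0.27). Among p53 targets and growth arrest genes 13 of 25 rose and 5 fell, and BTG1, an antiproliferative gene, rose by 1.66, while CDKN1A, the cyclin kinase inhibitor p21, was 6326 and 6539.8 and 6870.1 and 6227 (0.02, adjusted p = 0.765). The p53 list's median of 0.27 became -0.02 under median centring, with 9 higher and 7 lower, and 0.42 with a common total, with 18 and 4.

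All 13 mitochondrially encoded messenger RNAs were lower with celastrol, but not equally. MT-CO3 went from 15977 and 13319 to 752 and 568 (-4.48, SE 0.13, adjusted p = 1.42e-07), MT-ATP6, whose annotated end overlaps MT-CO3, from 10476 and 8329 to 1227 and 982 (-3.09, SE 0.13, adjusted p = 6.97e-07), and MT-ND6, which is read from the light strand, from 2364 and 1562 to 154 and 108 (-3.89, SE 0.24, adjusted p = 3.27e-06). MT-ND5 fell least, from 6878 and 5557 to 4892 and 3049.5 (-0.68, adjusted p = 0.0206, 0.0611 with a common total and 0.163 without the second library with celastrol), and MT-ND1 fell by 1.40. The 13 together took 0.630 and 0.551% of all normalized reads with TGFB1 and 0.158 and 0.133% with celastrol, and the median change was -2.17. Nuclear genes for respiratory chain subunits fell by far less: 22 of 36 were lower and 0 higher, with a median of -0.25 against -0.13 over all genes, and the count lower was 7 with a common total and 14 without the first library with celastrol. In glycolysis 5 of 24 genes rose (20.8%) and 13 fell (54.2%), against 22.5 and 38.0% over all genes. The counts were 6 and 6 with a common total and 4 and 18 with median centring. The glucose transporters parted, SLC2A3 rising by 1.53 and SLC2A1 falling by 0.66. Cholesterol and fatty acid genes had 13 of 30 higher and 5 lower, with a median of 0.17. The balance reversed under median centring, at 5 higher and 13 lower (median -0.12), and was 19 and 2 with a common total (0.33). It was 7 and 4 without the second TGFB1 library, and 7 and 5 or 9 and 3 without the first or second library with celastrol.

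A further set of large falls was in genes whose change with TGFB1 alone did not pass, which does not show that TGFB1 left them unchanged. CARMN, a long non-coding RNA of smooth muscle cells whose exons overlap those of MIR143, went from 6624 and 7069 to 640.1 and 532 (-3.55, SE 0.14, adjusted p = 4.89e-07). CLK2, a kinase of splicing factors, went from 719 and 689 to 103 and 109.7 (-2.72, SE 0.10, adjusted p = 4.16e-07). RPL36A, a ribosomal protein gene that shares exons with a readthrough transcript, went from 369 and 340.1 to 40.8 and 64.4 (-2.76, SE 0.37, adjusted p = 0.000239). Without TGFB1, against vehicle, celastrol gave changes of -3.49, -2.72 and -2.39 in the same 3 genes, and TGFB1 alone gave 0.16, 0.02 and 0.54, none of which passed (adjusted p = 0.484, 0.97 and 0.349).

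The vehicle and celastrol libraries place these changes against the TGFB1 effect. The TGFB1 libraries enter both the TGFB1 comparison (TGFB1 against vehicle) and the celastrol comparison, so opposite signs in the 2 are not independent, and the levels are given side by side. Celastrol alone against vehicle had 51.1% of the 13343 genes called, 21.1% higher and 29.9% lower. TGFB1 against vehicle had 31.4% called, 19.8% higher and 11.7% lower, and both agents against vehicle 51.6%, 21.1% higher and 30.4% lower. CCN2 was 22618 and 21793 with vehicle, 143117 and 157853 with TGFB1, 20523 and 24924 with celastrol alone and 24485 and 26064 with both. The level with both did not pass against vehicle (0.19, SE 0.10, adjusted p = 0.138). XYLT1 with vehicle was 2479 and 2565 (-0.04 with both against vehicle, SE 0.11, adjusted p = 0.772), and did not pass either. IL11 and LIF stayed above vehicle, at 334 and 302 and 266 and 259.7 there, with changes of 1.57 (SE 0.09, adjusted p = 4.05e-06) and 1.44 (SE 0.10, adjusted p = 8.95e-06) with both. With celastrol alone they were 672 and 735 and 599.8 and 625, which is 1.14 and 1.22 against vehicle (adjusted p = 2.15e-05 and 2.23e-05). ELN fell under it, from 1413 and 948 with vehicle to 519 and 538 with both (-1.13, SE 0.20, adjusted p = 0.0013).

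Several named genes that TGFB1 lowered were higher with celastrol. They were chosen with results against the same TGFB1 libraries known, so they do not stand for all genes that TGFB1 lowered. ADAMTS1 was 12675 and 11572 with vehicle, 1398 and 1471 with TGFB1, 15842 and 16324 with celastrol alone, and 15828 and 18076 when both were given. ARHGAP28, which stimulates small GTPases to hydrolyse GTP, was 538 and 513, 59.3 and 55.3, 824 and 843 and 848 and 832 across those 4 groups. TWIST1 was 610.3 and 651 with vehicle, 212 and 215 with TGFB1, 782 and 839 with celastrol alone, and 686 and 804 when both were given. In these 3 the TGFB1 libraries stood alone below the other 6. SMAD6 with both was a little under vehicle (1001 and 928, -0.31, SE 0.09, adjusted p = 0.0146), and BMP4 was 2.08 above it (364 and 354, SE 0.09, adjusted p = 8.01e-07).

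**Figure D4:**
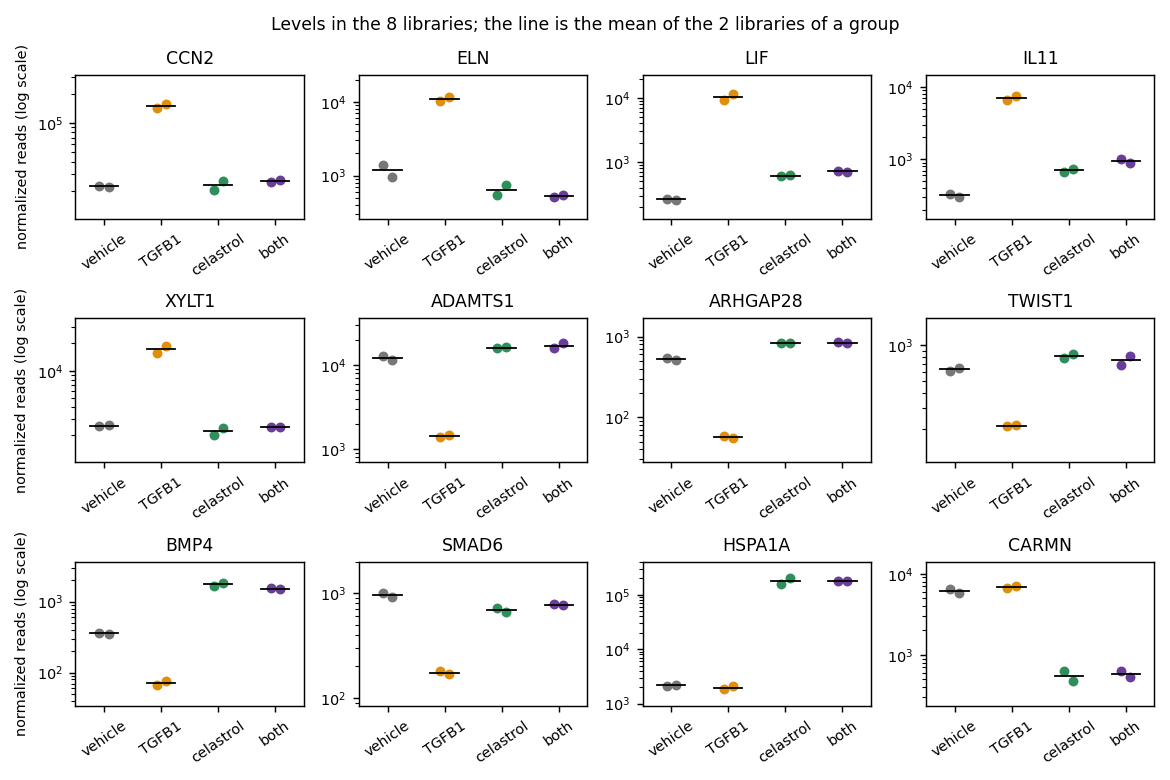
Normalized reads (y axes, log scale) in the 8 libraries for 12 genes, by group on the x axis: vehicle in grey, TGFB1 in orange, celastrol in green and both in purple, with a line at the mean of the 2 libraries. CCN2, ELN, LIF, IL11 and XYLT1 are highest with TGFB1 alone, ADAMTS1, ARHGAP28, TWIST1, BMP4 and SMAD6 lowest there, and HSPA1A and CARMN follow celastrol with or without TGFB1.

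Whether the celastrol difference itself depended on TGFB1 was tested by the interaction of the 2 agents. It was called for 2206 of the 13343 genes (16.5%), 729 (5.46%) with a more positive and 1477 (11.1%) with a more negative celastrol difference in the presence of TGFB1. The count was 1258 and 1096 without the first or second library of TGFB1 with celastrol, 1427 and 1201 without those of celastrol alone, 1398 and 1249 without those of vehicle, and 877 without a trend of variance on level. HSPA1A (0.18, SE 0.16, adjusted p = 0.535), DNAJB1 (0.05, SE 0.13, adjusted p = 0.85), MT-CO3 (0.03, SE 0.19, adjusted p = 0.939) and CARMN (-0.06, SE 0.20, adjusted p = 0.891) did not pass, which does not show that their differences were equal. The EGF receptor ligand HBEGF rose with celastrol without TGFB1 (2.31, adjusted p = 2.19e-06) and fell with it, and PTGS2 did likewise (1.39, adjusted p = 5.84e-06). Further genes named above as falls had a positive change without TGFB1. Among them were LRRC32 (1.57), PMEPA1 (0.93), HAS2 (0.77), TSPAN2 (0.71), HSPA5 (0.40), PLOD2 (0.34) and SLC2A1 (0.23). SMAD6, CEMIP and SMAD3 went the other way, rising with TGFB1 and changing by -0.47, -0.33 and -0.27 without it. Adjusted p-values for these changes without TGFB1 are not given here.

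**Figure D5:**
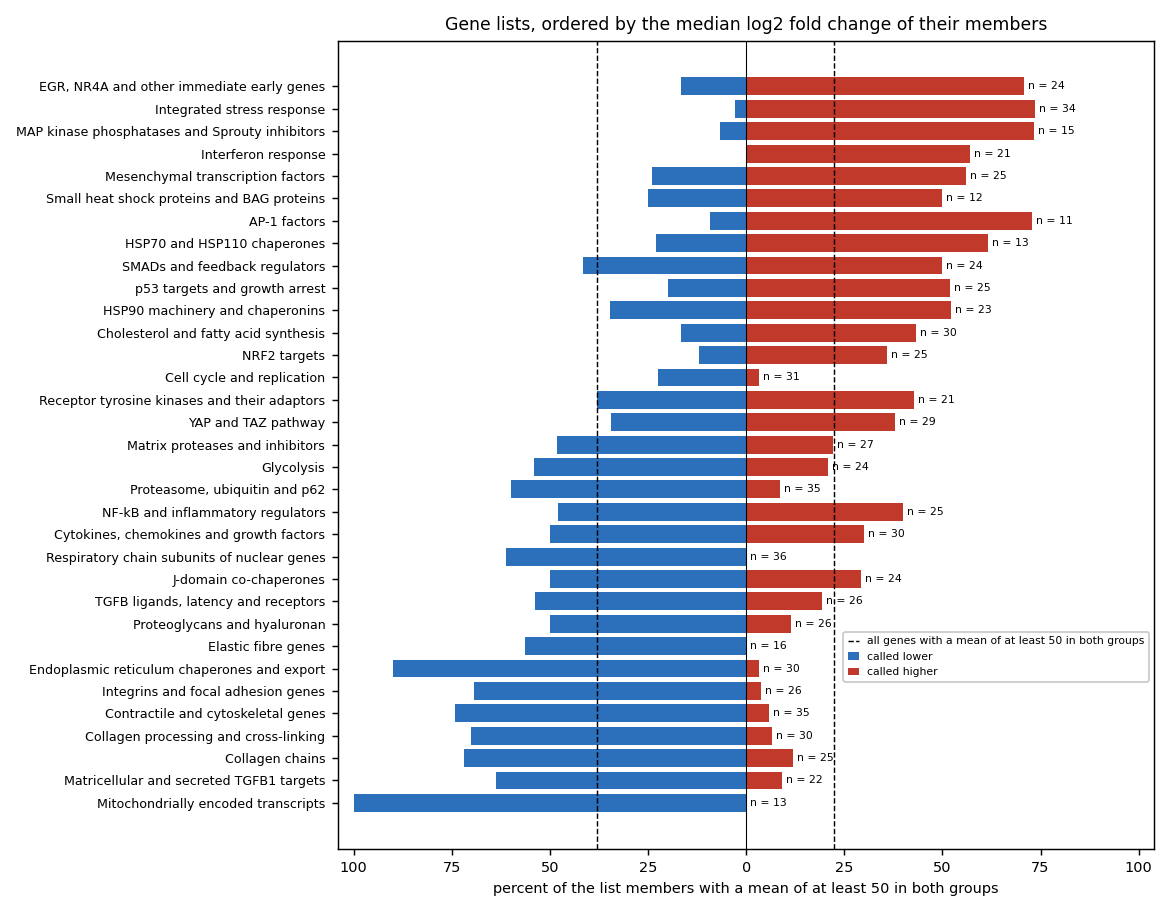
Share of each list's members with a mean of at least 50 in both groups that were called higher (red, right) or lower (blue, left), in percent on the x axis, with lists ordered on the y axis by the median log2 fold change of their members. Dashed lines mark the shares over all 13343 genes, 22.5 and 38.0%; immediate early and integrated stress response genes stand at the top, and collagen chains, matricellular targets and mitochondrially encoded transcripts at the bottom.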

How the data were processed

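RNA was measured in 8 libraries of CCD-1077Sk fibroblasts, 2 per group, made from total RNA. Per the submitters' processing notes, the tools were STAR 2.7.3a, Partek 10.0.22 and DESeq2, and the build was hg38. Which tool did which step, the annotation, how reads were counted and whether strand was used were not given in the sources used here. For 24598 genes, the authors deposited a signal value in each library, read here from the low values as an estimated count over a library size factor: 66.4 to 72.4% of the positive values of a library were whole multiples of a step, within 0.02 reads. Because the rest were fractional, no count model was fitted. No gene peaked below 11 estimated reads, so rarer transcripts are not analysed here.

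Tests used log2(value + 1), a scale that draws changes of low genes toward 0. The 22866 genes that reached 10 normalized reads in 2 or more libraries were fitted with limma 3.58.1 in R 4.3.3, with 1 mean per group over all 8 libraries, variance moderated along the mean and 4 residual degrees of freedom. Tests were two-sided, with p-values adjusted by Benjamini-Hochberg over all genes tested. The fit was tested on simulated data. The groups are those of the labels, and replicate numbers those of the titles. Gene lists numbered 39, with 875 distinct genes, and are described by counts and medians, with no set test. The members, lists, motifs and rules were chosen with earlier results of these data known. Named genes were the 20 largest rises and 20 largest falls called, with groups not overlapping and a mean of at least 50 in both groups, leaving out names of clones, LINC and LOC genes, small RNAs and their hosts, pseudogenes and antisense-type transcripts. For each list the 4 members with the smallest p and a few set members were added. ADAMTS5, BDNF, BMPR2, COL15A1, COL4A2, CTH, DNAJB11, DNAJB4, DNAJB6, ERO1B, FOXO1, FSTL3, GCLM, HGF, HSP90AB1, HSP90B1, HSPA4, HSPA9, HSPE1, ID2, ITGB3, ITGB8, LRRC32, MANF, MT-ND1, MT-ND5, PSMA2, SDF2L1, TAGLN, TGFBR1, TGFBR2, TGM2, THBS1, TIMP1, TRIB3 and members named as the few that moved against their list were chosen after their values were seen. Some genes that this rule picks are not reported here. Exon overlaps are from GENCODE 29 and are stated for some genes only, so a gene without one stated may still have one. Among those not stated above, ADAM19 overlaps CYFIP2, CCND1 overlaps LTO1 and BDNF overlaps BDNF-AS. CCN2 and PRECSIT were not found there by name, so their overlaps were not checked. Promoter windows are from RefSeq. Alternatives changed the scaling, pseudocount, filter, variance model, libraries in the fit, replicate block, level rule and the denominator of shares.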

Additional observations from a re-analysis of the deposited data

Results flagged for a closer look

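For 98 of the 160 genes named with values, the celastrol difference with TGFB1 differed from that without TGFB1 by the interaction test (limma, adjusted p under 0.05). The values below are log2 differences, the change with TGFB1 minus the change without it, so they do not give the sign of either change. Over all 13343 genes 16.5% were called, and the named genes were chosen with results in view, so their share shows nothing more. The TGFB1 libraries enter this test and the TGFB1 comparison alike. Some calls lay near the threshold, with adjusted p of 0.0479 for ITGB3, 0.0417 for LOX, 0.0413 for DUSP1 and 0.039 for TAGLN. Without a variance trend 877 genes were called in place of 2206, and which of the named calls held there is not given. No cause was tested. Of the matricellular, latency, receptor and feedback genes named, these had a more negative difference with TGFB1: -3.63 for PMEPA1, -3.23 for LRRC32, -3.13 for ESM1, -2.60 for CCN2, -2.58 for TGFBI, -2.26 for LTBP2, -1.80 for FSTL3, -1.35 for TGFB1, -1.14 for THBS1, -1.14 for BMPR2, -1.12 for TGFB2, -1.07 for SMAD7 and -0.86 for SMURF2. The following collagen, elastic fibre and other matrix genes were also more negative: -3.51 for ELN, -2.60 for XYLT1, -2.37 for HAS2, -1.99 for COL4A1, -1.75 for TGM2, -1.68 for COL7A1, -1.34 for COL5A1, -1.21 for COL4A2, -1.07 for ADAMTS2, -0.86 for COL1A1, -0.71 for PLOD2, -0.57 for FBN1 and -0.53 for LOX.

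Among adhesion, contractile, protease and membrane genes the values were -3.68 for TSPAN2, -2.39 for PODXL, -2.37 for NOX4, -2.34 for NPR3, -2.18 for EFR3B, -1.97 for ADAM19, -1.69 for ADAM12, -1.60 for ITGA2, -1.42 for TIMP1, -1.24 for ITGB3, -1.18 for TPM1, -0.90 for SLC2A1, -0.81 for TAGLN, -0.72 for PDLIM5, -0.55 for PTK2 and -0.54 for SLC2A3. Secreted signals and inflammatory genes gave -5.07 for LIF, -4.06 for HBEGF, -4.02 for IL11, -3.27 for SEMA7A, -2.87 for IFNE, -2.54 for PTGS2 and -1.44 for CCL2. Some chaperone and stress genes rose with celastrol under both conditions, by a smaller log2 change with TGFB1, at differences of -0.89 for HMOX1, -0.83 for GCLM, -0.63 for BAG3, -0.60 for HSPB8, -0.54 for HSPH1, -0.48 for HSPD1, -0.45 for CHORDC1, -0.45 for DNAJA1, -0.41 for HSPA9, -0.40 for HSPA4 and -0.38 for HSP90AB1. A smaller change does not show a lower end level. BAG3, for 1, was 1158 and 1209 with vehicle and 1667 and 1834 with TGFB1. It was 8936 and 10591 with celastrol alone and 9706 and 8895 with both. In the endoplasmic reticulum the values were -1.06 for CREB3L2, -0.74 for SYVN1, -0.70 for HSPA5 and -0.68 for DNAJC3. Immediate early and related factors gave -2.23 for FOSB, -2.00 for EGR3, -1.63 for SNAI1, -1.53 for EGR1, -1.01 for GLI2, -0.97 for NR4A1, -0.85 for DUSP7, -0.83 for SPRY2, -0.75 for CCND1, -0.60 for RUNX1 and -0.53 for DUSP1. Receptor tyrosine kinase genes gave -0.74 for EGFR and -0.72 for PDGFRB.

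A more positive celastrol difference with TGFB1 was found in these genes, each lower with TGFB1 than with vehicle: 3.19 for ARHGAP28, 3.15 for ADAMTS1, 2.69 for IFIT2, 2.61 for SMAD6, 2.12 for BMP4, 2.09 for IFIT1, 2.08 for PRECSIT, 2.02 for TGFBR3, 1.83 for SIPA1L2, 1.62 for ITGB8, 1.50 for CEMIP, 1.43 for TWIST1, 1.41 for GAB1, 1.38 for STC2, 1.36 for FST, 1.34 for KLF4, 1.11 for CTH, 0.89 for RUNX2, 0.88 for SMAD3, 0.72 for NFKBIA and 0.50 for CDRT1.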

How the results depend on the processing

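With 2 libraries a group, 4 residual degrees of freedom and no statement that libraries came from separate cultures, p-values reflect how far these libraries differ, and small changes of low genes were not detectable. Centring each library on its median gave 1799 genes higher and 7956 lower, and a common total gave 4007 and 3468; the cause of the difference between scalings was not tested. Median centring turned CDKN1A, called higher with a common total (limma, adjusted p = 0.0312), to -0.26 (0.00409), HSPA8 to -0.10 (0.236) and SQSTM1 to -0.042 (0.645). Leaving out each library in turn gave 2490 to 2942 genes higher, 4191 to 4952 lower, 12172 to 14214 called over all tested and 1096 to 2169 for dependence on TGFB1. Without a variance trend 877 genes were called for that dependence; the cause was not tested.

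The labels number replicates 1 and 2 in each group but do not say that a number marks a shared culture or day. For the second library of celastrol alone, 1 label gives the number 3. Deviations of same-numbered libraries correlated by 0.171 to 0.233 over genes, with only 2 numbers, so the pairing is not established. A fit with the replicate number as a block called 3274 genes higher, 5473 lower, 15312 over all tested and 3178 for dependence on TGFB1, and with it ACTA2 passed (adjusted p = 0.000269). Of 215 genes that the naming rule or the text picked, 200 were called; 10 lost the call and 11 uncalled ones gained one under at least 1 setting. In lists, counts of 3 or fewer members in a direction moved by over 1.5 times when 1 library was left out for NRF2 targets, the integrated stress response, AP-1, matricellular, collagen, cross-linking, contractile, integrin and cell cycle genes. The other planned settings left the counts of genes called higher, lower, over all tested and for dependence on TGFB1 within 1.5 times those reported.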

Other observations

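Receptor tyrosine kinases and their adaptors had 9 of 21 members higher and 8 lower with celastrol, with a median of 0.00 against -0.13 over all genes (10 and 3 with a common total, 8 and 10 with median centring). The count lower was 4 without the second TGFB1 library and 5 and 3 without the first or second library with celastrol. The receptors of platelet-derived growth factor, a mitogen of fibroblasts, moved apart: PDGFRA went from 7862 and 8885 to 12906 and 14386 normalized reads (0.71, SE 0.09, adjusted p = 0.000138) and PDGFRB from 16296 and 18408 to 10750.3 and 10677 (-0.69, SE 0.07, adjusted p = 5.19e-05). The collagen receptor DDR2 rose by 0.64 and EGFR, the receptor of HBEGF and EREG, fell by 0.74 (limma, adjusted p = 2.54e-05 and 1.61e-05). The adaptors IRS1 and IRS2 of insulin signalling rose by 0.93 and 1.01 and the docking protein GAB1 went from 475 and 417 to 1194 and 1319.5 (1.49, SE 0.10, adjusted p = 6.52e-06). With vehicle GAB1 was 1131 and 1158, above the TGFB1 libraries and near those with both agents.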
